A study of Mus musculus with 12 samples.

Results

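The genes described here are those of the autophagy core machinery (*Atg*, *Map1lc3* and *Gabarap* families), of the lysosomal proteases (cathepsins), of the lysosome-associated membrane proteins (*Lamp*) and of the vacuolar proton pump (*Atp6v*). They were chosen by their names and number 67 of the 34245 genes of the count table. The pseudogene name, *Atg4a-ps*, was left out. RNA sequencing was carried out on 4 groups of 3 libraries: stem cells of the intestine (ISC) and enterocytes of the villus, termed adult enterocytes (AE), each from young male mice with a mean age of 8 months and from aged male mice with a mean age of 27 months. All mice were C57BL/6 and carried the Lgr5-EGFP-IRES-creERT2 knock-in, which expresses green fluorescent protein (GFP) from the *Lgr5* stem cell locus, so that young and aged, ISC and AE alike have this allele. ISC were the viable GFP-high cells of crypt suspensions and were not stained with antibodies. AE were viable Epcam-high villus cells sorted as negative for the leukocyte antigen CD45 and the endothelial antigen CD31. A code shared by the column names links each ISC library to an AE library of the same age, but no label names the animals, so p-values measure the spread between these libraries. The comparisons that follow from the design are of AE with ISC at each age and of aged with young in each cell type.

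Autophagy delivers cytoplasm and organelles to lysosomes. A kinase complex with Atg13 and Atg101 starts the process, Atg9 vesicles and the lipid transfer protein Atg2 supply membrane, and ubiquitin-like conjugation links Atg8 proteins (LC3 and GABARAP) to the growing autophagosome. In the lysosome, cathepsins digest the cargo at an acid pH that the V-ATPase maintains with its membrane sector V0 and its ATP-hydrolysing sector V1, and Lamp1 and Lamp2 line the membrane. In the small intestine stem cells divide at the crypt base, while enterocytes absorb nutrients on the villus and are shed within days. Many lysosomal genes hold in their promoters a short palindrome bound by the transcription factor TFEB and its relatives.

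Reference promoters were searched for this palindrome in 2 forms, the core CACGTG and the extended TCACGTGA, each of which reads the same on both strands and of which the second contains the first. RefSeq windows (GRCm38.p6) from 250 bases before to 50 bases after a transcription start were at hand for 54 of the 67 genes and for 27025 genes in all. The core was found in 13 of the 54, or 24.1%, and in 8.09% of all genes. The extended form was found in 6 of the 54, or 11.1%, and in 1.12% of all genes. These 6 were *Atg3*, *Atp6v0d1*, *Atp6v0e*, *Atp6v1a*, *Ctsa* and *Ctsd*. All 6 are shown, and each was called higher in AE than in ISC at both ages in the tests given later. Each stretch is read 5′ to 3′ along the gene. The first copy of the extended form is in capitals, and *Ctsa* holds another in lower case:
Atg3: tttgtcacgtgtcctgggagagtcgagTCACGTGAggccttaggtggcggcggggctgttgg
Atp6v0d1: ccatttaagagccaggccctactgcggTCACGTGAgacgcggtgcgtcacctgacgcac
Atp6v0e: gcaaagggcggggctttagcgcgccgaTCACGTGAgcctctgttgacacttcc
Atp6v1a: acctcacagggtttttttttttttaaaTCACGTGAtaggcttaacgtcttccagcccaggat
Ctsa: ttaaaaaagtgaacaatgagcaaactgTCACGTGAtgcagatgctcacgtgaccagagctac
Ctsd: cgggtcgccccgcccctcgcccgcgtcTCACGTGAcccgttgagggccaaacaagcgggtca
The stretch of *Atg3* is chr16:45158730-45158791 on the plus strand, that of *Atp6v0d1* is chr8:105566037-105566095 on the minus strand and that of *Atp6v0e* is chr17:26676371-26676423 on the plus strand. The stretch of *Atp6v1a* is chr16:44139357-44139418 on the minus strand, that of *Ctsa* is chr2:164833733-164833794 on the plus strand and that of *Ctsd* is chr7:142387892-142387953 on the minus strand. The centre of the copy in capitals lay 128 bases before the start in *Atp6v1a*, 95 before it in *Ctsd* and 68 before it in *Atg3*. That centre lay 9 bases before the start in *Ctsa*, at the start in *Atp6v0d1* and 6 bases after it in *Atp6v0e*. The start is that of a RefSeq window, and a gene can have several (32851 windows for 27025 genes). In the gene spans used for the counts, *Ctsa* begins upstream at 164832873. On the minus strand, *Ctsd* begins at 142388038 and *Atp6v1a* at 44139705. The stretches of these genes thus lie inside their spans. Of the genes called higher at both ages, 29 had a window and 6 of these (20.7%) held the extended form. Among genes not called at either age, 9 had a window and 0 held it, while 2 (*Atg7* and *Atg14*) held the core alone. With only 9 windows this 0 cannot be set against the other share, and a link between palindrome and calls was not tested. Other genes of the pathway, listed later, had 91 windows. Of these, 5 (5.49%) held the extended form and 17 (18.7%) the core. The 5 were *Clcn7*, *Gla*, *Igf2r*, *Mcoln1* and *Nrbf2*, and they did not all go the same way. Mean levels (in CPM, defined below) of *Clcn7*, *Igf2r*, *Mcoln1* and *Nrbf2* were higher in AE than in ISC at both ages. Those of *Gla* were lower in AE, at 13.04 in ISC and 10.51 in AE of young mice and 12.55 and 9.42 in aged mice. A match describes letters in a window, and binding was not measured.

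Library totals lay between 11893817 and 26796461 counts, except for the third young AE library with 110794420. Raw counts of that library are therefore not on the scale of the others. Levels are given as CPM (counts scaled to a common library size) after scaling by trimmed mean of M-values (TMM), with libraries 1, 2 and 3 of a group in the order of the table. The 10 stem cell markers summed to between 5926 and 8377 CPM in ISC libraries and to between 130 and 669 CPM in AE libraries, and 12 enterocyte markers to between 1738 and 9471 CPM in ISC and to between 68130 and 108000 CPM in AE, so that each of these lists was highest in the cells labelled for it. Markers of other villus cells also moved with AE. The 6 goblet cell markers summed to between 1294 and 2055 CPM in ISC and to between 21920 and 41160 CPM in AE, and the 6 enteroendocrine markers to between 222 and 674 CPM in ISC and to between 2536 and 6453 CPM in AE. In each of these lists 5 were called higher in AE at both ages, and 1 was called lower in aged AE. The 6 Paneth cell markers summed to between 545 and 1610 CPM in ISC and to between 52.03 and 227 CPM in AE. The part of such cells in the differences between AE and ISC was not tested. In bulk RNA, fewer cells of a type and less RNA per cell cannot be told apart. The code at the start of a title and its remainder name different groups in 8 of 12 titles, so columns went to the group written in their own names.

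Of the 67 genes, 51 had a mean of at least 1 CPM over the 12 libraries, 7 had counts with a mean under 1 CPM, *Atp6v0d2* never exceeded 3 counts, and 8 were at 0 counts in every library. The 8 were *Atp6v1g3*, *Atp6v1e2*, *Lamp5*, *Ctsg* and the cathepsins *Ctsj*, *Ctsq*, *Ctsr* and *Ctsm*, which are known from the rodent placenta. A count of 0 allows up to 3 counts, or between 0.0360 and 0.327 CPM in these libraries. The 7 at low levels were *Ctsk*, *Ctsw*, *Atg9b*, *Lamp3*, *Atp6v0a4*, *Atp6v1b1* and *Atp6v1c2*, the last 3 being pump subunits known from kidney and other acid-secreting cells. Levels of different genes were compared per kilobase of merged exon. On this scale *Lamp1* was highest in aged AE at 387 ± 61.3 CPM per kb (SD, n = 3), followed by *Ctsz* at 285 ± 3.75, *Gabarap* at 239 ± 6.06, *Ctsd* at 179 ± 7.03, *Ctss* at 171 ± 4.88 and *Ctsb* at 135 ± 11.7 CPM per kb. In aged ISC the order began with *Ctsz* at 119 ± 25.96, *Lamp1* at 111 ± 12.8, *Gabarap* at 87.5 ± 17.4, *Ctsd* at 76.5 ± 15.98 and *Ctsb* at 75.2 ± 6.60 CPM per kb, and the first 2 of these, like the last 2, did not differ beyond their spread. *Atg9a*, the highest of the *Atg* genes in aged AE, reached 40.7 ± 3.49 CPM per kb, and *Atg7* was at 2.91 ± 0.178 there. Some lysosomal genes lay within this range too, such as *Ctsl* at 4.41 ± 0.439 and *Atp6v1h* at 7.45 ± 0.546 CPM per kb.

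Most of these genes were higher in AE than in ISC, at both ages. In young mice edgeR's quasi-likelihood test, run over all genes, covered 56 of them, and 36 (64.3%) were called higher in AE at an adjusted p under 0.05, against 27.7% of all 16681 genes tested. Only *Lamp3* (1.79%) was called lower, against 25.4% of all genes. In aged mice 55 were tested, of which 40 (72.7%) were called higher against 30.0% of all genes, and 4 (7.27%: *Ctsh*, *Atg16l2*, *Atg10* and *Atp6v1b1*) were called lower against 34.1%. The median log2 fold change of the genes tested was 1.03 in young and 1.04 in aged mice, where the medians of all genes were 0.15 and -0.13. Of the 54 tested at both ages, 36 (66.7%) were called higher at both against 26.5% of all genes, 0 were called lower at both against 26.4%, and 52 (96.3%) had the same sign at both against 92.4%. In young mice all AE libraries lay above all ISC libraries for 41 of the 56 and below them for 2. In aged mice they lay above for 43 of the 55 and below for 5. Of all genes tested, 62.9% in young and 69.9% in aged mice were without overlap in either direction. Such separation, named for single genes below, was thus common among all genes. The share of a library's counts that fell on the 67 genes is itself a scaling to the library total, in which abundant genes weigh most. It was between 0.361% and 0.427% in the 6 ISC libraries and between 0.483% and 0.528% in the 6 AE libraries.

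The size of the difference depends on how the libraries are scaled. Scaled to library totals alone, the median of all genes moved to -0.55 in young and -0.91 in aged mice. The calls then were 19 higher and 10 lower in young mice, with 15.4% and 42.8% of all genes, and 19 higher and 15 lower in aged mice, with 17.1% and 53.4%. Of the genes called under TMM scaling, 4 changed sign in young mice (*Atg5*, *Atp6v1c1*, *Ctsb* and *Ctsc*, from -0.19 to -0.01) and 8 in aged mice (*Atg4c*, *Atg5*, *Atg12*, *Atg13*, *Atp6v1c1*, *Atp6v1g1*, *Atp6v1h* and *Ctsc*, from -0.41 to -0.01), and *Ctsc* was then called lower in aged AE (adjusted p 0.0229). A change of scaling shifts the values of all genes alike, so the median of these genes stayed above that of all genes, by 0.88 in young and 1.17 in aged mice, by construction. The lower calls rested on few libraries: *Lamp3* was not called without the first or the second young ISC library, nor with the library code as a replicate block, which each left 0 lower calls, and 2 genes were called lower without the second young AE library. In aged mice the 4 lower calls became 1 without the second aged ISC, the second aged AE or the third aged AE library, and 2 without the first aged AE library.

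**Figure D1:**
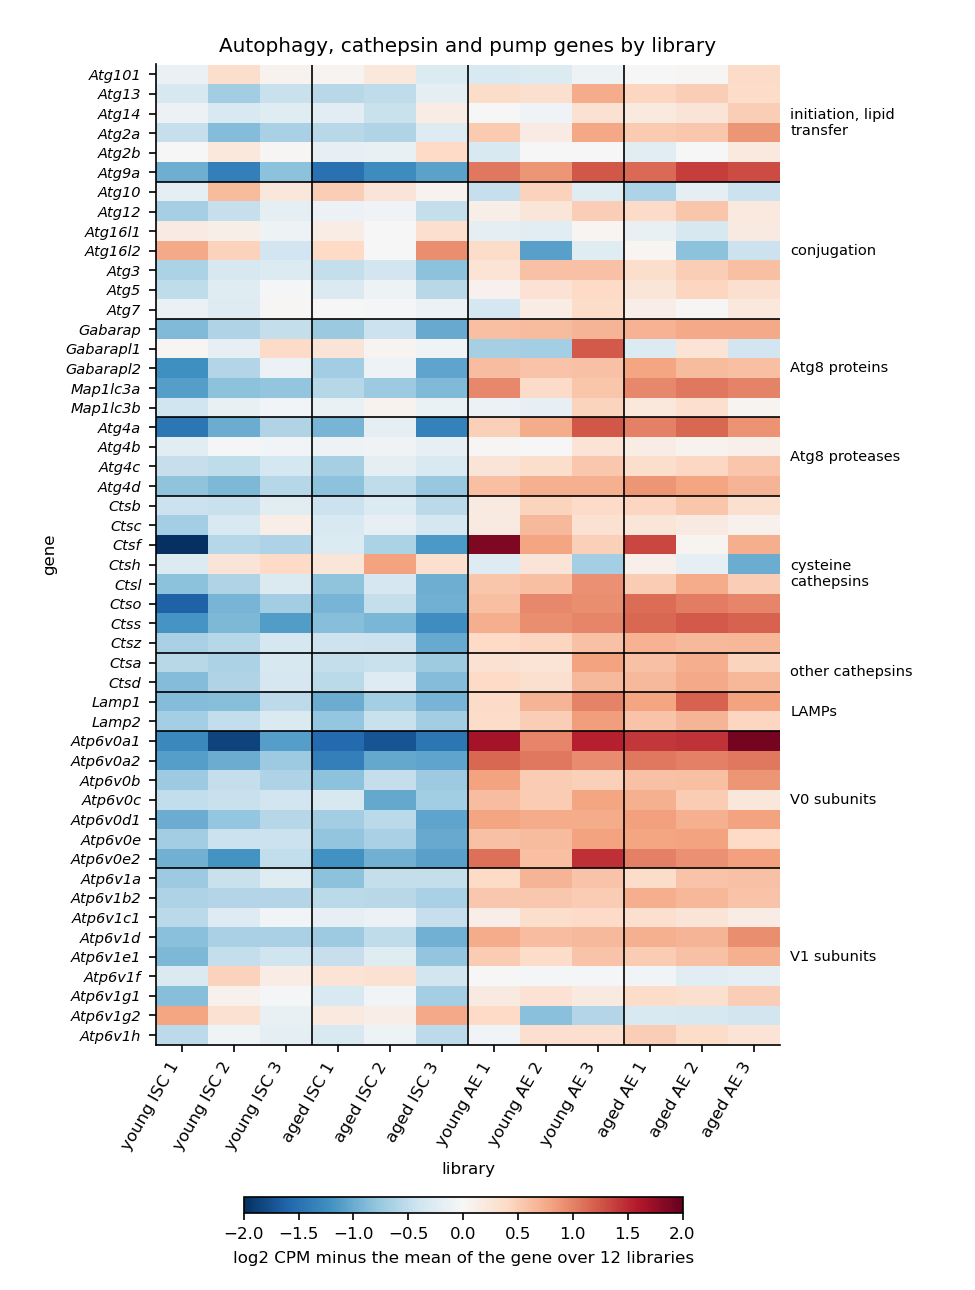
Heatmap of the autophagy, cathepsin, LAMP and pump genes with a mean of at least 1 CPM other than *Ctse* (rows, by role) in 12 libraries (columns). Colour is the log2 CPM of a library minus the mean of that gene over the 12 libraries, from -2 (blue) to 2 (red), and most rows pass from blue in the 6 ISC libraries to red in the 6 AE libraries.

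**Figure D2:**
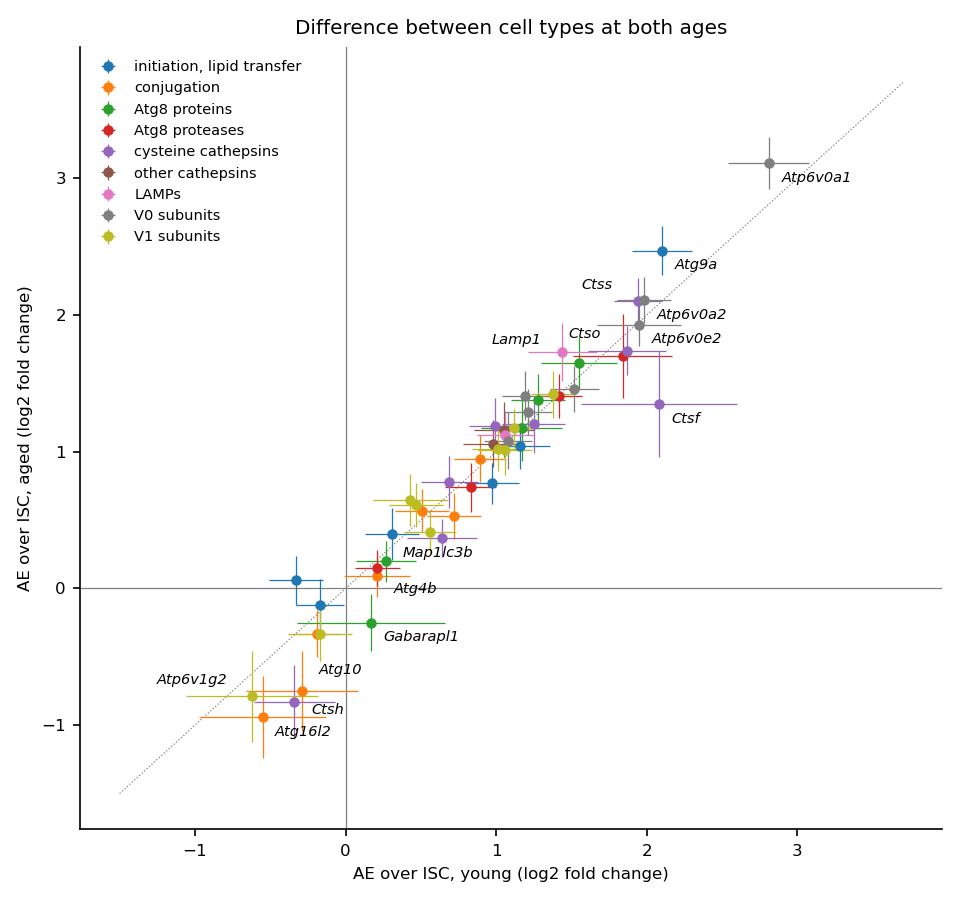
AE over ISC as a log2 fold change in young mice (x axis) against aged mice (y axis) for the same genes, coloured by role, with bars of 1 SE and a dotted line of equality. *Atp6v0a1* stands highest at 2.81 and 3.11, and *Ctsh*, *Atg16l2*, *Atg10*, *Atp6v1g2*, *Atp6v1f*, *Atg16l1* and *Atg2b* lie below 0 at both ages.

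All 7 tested V0 subunits of the pump were higher in AE at both ages, and the 2 others of the 9, *Atp6v0a4* and *Atp6v0d2*, were at or near 0 counts. *Atp6v0a1* encodes an isoform of the large subunit a, through which protons pass. It was at 26.5, 17.98 and 30.03 CPM in ISC of young mice, 22, 19.6 and 23.8 CPM in ISC of aged mice, 206, 127 and 189.9 CPM in AE of young mice and 173, 177 and 244 CPM in AE of aged mice, so that every AE library held more than any ISC library. For *Atp6v0a1*, AE exceeded ISC by a log2 fold change of 2.81 (SE 0.27) in young mice, with an adjusted p of 1.93e-04. *Atp6v0a1* gave 3.11 (SE 0.19) in aged mice, with an adjusted p of 9.37e-07. *Atp6v0a2*, another isoform of subunit a, was at 98.6, 106 and 128 CPM in ISC of young mice, 82.5, 104 and 102 in ISC of aged mice, 469, 440.3 and 409.7 in AE of young mice and 442, 425 and 442 in AE of aged mice. Its AE libraries lay close together and apart from ISC, and AE exceeded ISC by a log2 fold change of 1.98 (SE 0.18) in young mice, with an adjusted p of 1.82e-04. *Atp6v0a2* gave 2.11 (SE 0.17) in aged mice, with an adjusted p of 4.71e-06. *Atp6v0e2*, an isoform of the small subunit e, was at 10.9, 9.30 and 15.2 CPM in ISC of young mice, 9.15, 10.9 and 10.1 in ISC of aged mice, 45.6, 32.3 and 58.4 in AE of young mice and 42.6, 40.04 and 37.7 in AE of aged mice. For *Atp6v0e2*, AE exceeded ISC by a log2 fold change of 1.95 (SE 0.28) in young mice, with an adjusted p of 7.99e-04. *Atp6v0e2* gave 1.93 (SE 0.16) in aged mice, with an adjusted p of 4.79e-06. *Atp6v0d1*, which joins the proton ring to the central stalk, was at 30.4, 35.2 and 40.8 CPM in ISC of young mice, 37.1, 41.5 and 28.96 in ISC of aged mice, 104, 100.5 and 101 in AE of young mice and 107, 99.1 and 105 in AE of aged mice. The groups of *Atp6v0d1* did not overlap, and AE exceeded ISC by a log2 fold change of 1.52 (SE 0.16) in young mice, with an adjusted p of 2.66e-04. *Atp6v0d1* gave 1.46 (SE 0.17) in aged mice, with an adjusted p of 4.12e-05. The proton ring subunits *Atp6v0b* and *Atp6v0c* and the subunit e gene *Atp6v0e* had smaller differences, with log2 fold changes of 1.21, 1.08 and 1.19 in young and 1.29, 1.08 and 1.41 in aged mice.

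Of 13 V1 subunits, 10 were tested in each comparison, and 5 were higher in AE in young mice and 7 in aged mice. Of those called at both ages, *Atp6v1d*, *Atp6v1b2*, *Atp6v1e1* and *Atp6v1a* differed most. *Atp6v1d*, a subunit of the central stalk, was at 21.5, 24.5 and 24.4 CPM in ISC of young mice, 23.3, 26.9 and 19.8 in ISC of aged mice, 64.5, 59.1 and 60.1 in AE of young mice and 62.9, 61.6 and 73.2 in AE of aged mice. The groups stood apart, and AE exceeded ISC by a log2 fold change of 1.38 (SE 0.15) in young mice, with an adjusted p of 2.87e-04. *Atp6v1d* gave 1.42 (SE 0.17) in aged mice, with an adjusted p of 4.21e-05. *Atp6v1b2*, the nucleotide-binding subunit B, was at 66.7, 68.4 and 68.4 CPM in ISC of young mice, 70.2, 69.5 and 65.2 in ISC of aged mice, 149, 148 and 145 in AE of young mice and 169, 163 and 151 in AE of aged mice. Its libraries varied little within a group, and AE exceeded ISC by a log2 fold change of 1.12 (SE 0.13) in young mice, with an adjusted p of 4.13e-04. *Atp6v1b2* gave 1.17 (SE 0.14) in aged mice, with an adjusted p of 6.5e-05. *Atp6v1a*, the catalytic subunit A, was at 37.8, 46.1 and 52.8 CPM in ISC of young mice, 35.5, 44.8 and 44.7 in ISC of aged mice, 81.9, 100.1 and 92.7 in AE of young mice and 80.7, 92.8 and 93.7 in AE of aged mice. The difference in *Atp6v1a* was close to that in *Atp6v1b2*, its partner in the head, and AE exceeded ISC by a log2 fold change of 1.01 (SE 0.17) in young mice, with an adjusted p of 0.00188. *Atp6v1a* gave 1.02 (SE 0.16) in aged mice, with an adjusted p of 3.05e-04. *Atp6v1e1*, of the peripheral stalk, was at 52.6, 70.7 and 74.6 CPM in ISC of young mice, 71.2, 83.2 and 56.98 in ISC of aged mice, 139, 127 and 146 in AE of young mice and 139, 146 and 161 in AE of aged mice. For *Atp6v1e1*, AE exceeded ISC by a log2 fold change of 1.06 (SE 0.18) in young mice, with an adjusted p of 0.00161. *Atp6v1e1* gave 1.01 (SE 0.18) in aged mice, with an adjusted p of 6.9e-04. *Atp6v1c1* was called at both ages with log2 fold changes of 0.56 and 0.41, which turned to -0.14 and -0.37 under library totals. *Atp6v1h*, which regulates the pump, and *Atp6v1g1*, of the peripheral stalk, passed the test in aged mice (0.61 and 0.65, or -0.17 and -0.13 under library totals) and not in young mice (0.47 and 0.43). *Atp6v1f* was not called at either age (-0.17 (SE 0.21) and -0.33 (SE 0.20)).

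Isoforms of 3 of these subunits were low in every library. *Atp6v1g2*, the isoform of *Atp6v1g1* known from neurons, was at 4.85, 3.46 and 2.53 CPM in ISC of young mice, 3.20, 3.07 and 4.76 in ISC of aged mice, 3.68, 1.57 and 1.87 in AE of young mice and 2.28, 2.24 and 2.18 in AE of aged mice. The ranges overlapped in young mice and not in aged mice, and the log2 fold changes of -0.62 (SE 0.44) and -0.79 (SE 0.33) did not pass the test (adjusted p 0.266 and 0.0574). *Atp6v1b1*, the isoform of *Atp6v1b2* known from acid-secreting cells, had 4, 6 and 5 counts in aged ISC, 0, 2 and 0 in young ISC, 0, 0 and 4 in young AE and 0 in each aged AE library. It was called lower in aged AE (adjusted p 0.0433), but its mean in aged ISC, 0.219 CPM, is under the 0.294 CPM that 3 counts per library make in aged AE. *Atp6v1c2* had 1, 2 and 14 counts in young AE, 3, 0 and 0 in aged AE and 0 in each ISC library, and it was not called in young mice (adjusted p 0.0502).

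**Figure D3:**
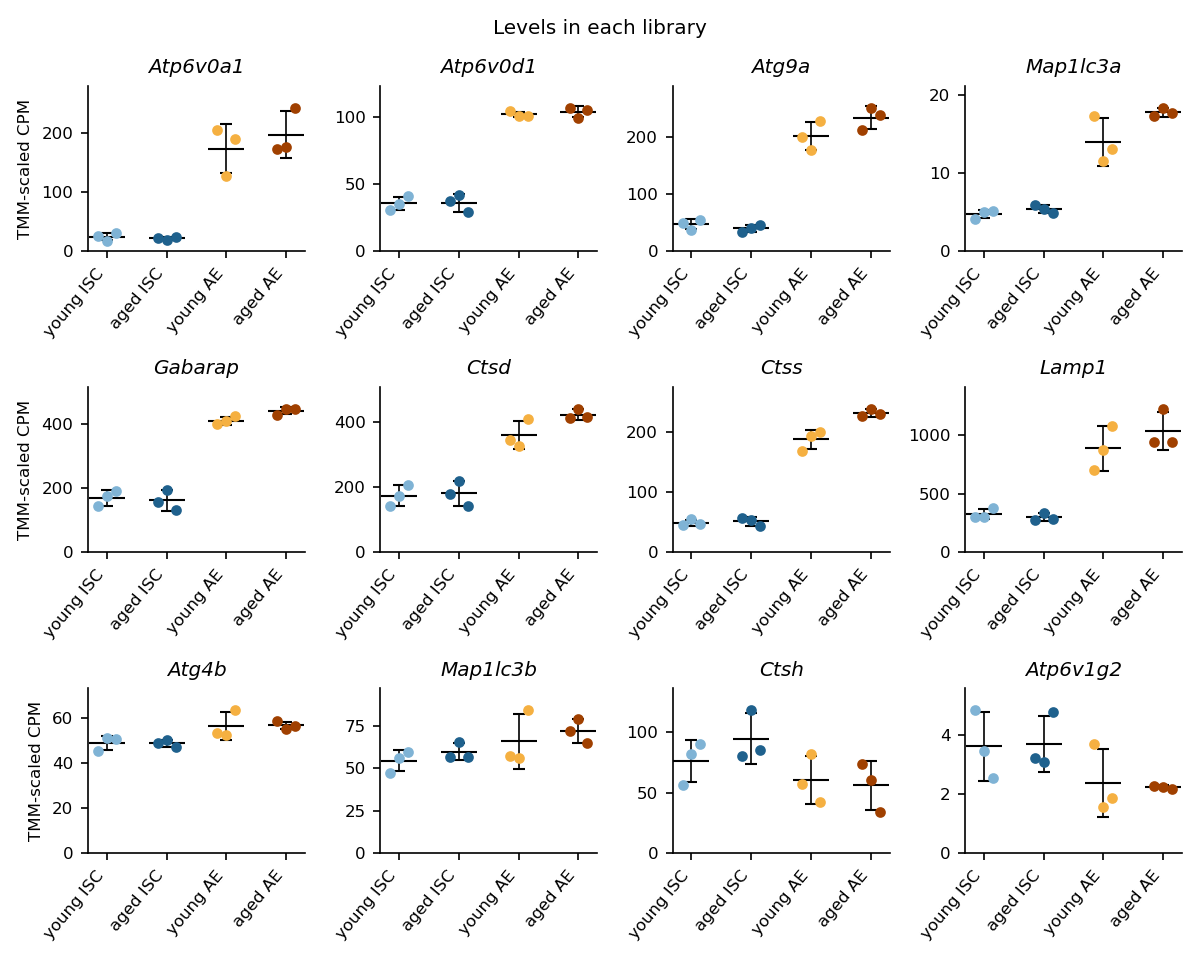
TMM-scaled CPM (y axis, from 0) of 12 genes in young ISC, aged ISC, young AE and aged AE. Points are libraries, and the line and bars are the mean and SD of 3 libraries. The first 8 genes are higher in every AE library than in any ISC library. *Atg4b* is so too, but by little (at most 50.95 CPM in ISC and at least 52.67 CPM in AE). *Map1lc3b*, *Ctsh* and *Atp6v1g2* overlap and show little difference or the opposite order.

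Among the cysteine cathepsins, 14 in all, 10 were tested at each age, and 7 were higher in AE in young mice and 9 in aged mice. *Ctss* encodes cathepsin S, which remains active at neutral pH and trims the invariant chain of MHC class II. It was at 45.03, 54.6 and 46.98 CPM in ISC of young mice, 56.6, 54.4 and 43.05 in ISC of aged mice, 169, 193 and 201 in AE of young mice and 226, 239 and 231 in AE of aged mice. Every AE library lay above every ISC library, and AE exceeded ISC by a log2 fold change of 1.94 (SE 0.16) in young mice, with an adjusted p of 1.37e-04. *Ctss* gave 2.10 (SE 0.17) in aged mice, with an adjusted p of 4.03e-06. *Ctso*, a widely expressed cathepsin, was at 8.61, 13.9 and 16.4 CPM in ISC of young mice, 13.9, 19.04 and 13.7 in ISC of aged mice, 40.2, 51.3 and 50.7 in AE of young mice and 57.5, 53.7 and 51.98 in AE of aged mice. The first young ISC library was the lowest for *Ctso*, and AE exceeded ISC by a log2 fold change of 1.87 (SE 0.26) in young mice, with an adjusted p of 7e-04. *Ctso* gave 1.74 (SE 0.18) in aged mice, with an adjusted p of 1.78e-05. *Ctsf*, cathepsin F, was at 0.829, 2.27 and 2.19 CPM in ISC of young mice, 2.78, 2.16 and 1.51 in ISC of aged mice, 12.2, 5.79 and 4.67 in AE of young mice and 8.47, 3.49 and 5.56 in AE of aged mice. Its libraries spread widely within AE, and AE exceeded ISC by a log2 fold change of 2.08 (SE 0.52) in young mice, with an adjusted p of 0.0101. *Ctsf* gave 1.35 (SE 0.39) in aged mice, with an adjusted p of 0.012. *Ctsl*, cathepsin L, was at 10.7, 12.6 and 15.6 CPM in ISC of young mice, 10.9, 15.1 and 9.70 in ISC of aged mice, 27.8, 28.9 and 35.8 in AE of young mice and 27.1, 31.9 and 26.8 in AE of aged mice. The call on *Ctsf* was lost in aged mice without the first AE library (0.99). For *Ctsl*, AE exceeded ISC by a log2 fold change of 1.25 (SE 0.21) in young mice, with an adjusted p of 0.00151. *Ctsl* gave 1.20 (SE 0.21) in aged mice, with an adjusted p of 6.32e-04. Of its exon bases 26.8% are shared with the antisense gene *Gm47123*, and while the library kit keeps the strand, whether the counting used it is not given in the sources used here. The abundant *Ctsb* rose from 448.5, 443.9 and 522 CPM in young ISC to 684, 822 and 786 CPM in young AE, a log2 difference of 0.69 (SE 0.19) that came to -0.01 under library totals. It was 0.78 (SE 0.19) in aged mice. *Ctsz*, a carboxypeptidase, had log2 fold changes of 0.99 and 1.19, and *Ctsc*, which activates granule proteases, of 0.64 and 0.37, which turned to -0.06 and -0.41 under library totals.

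*Ctsh*, an aminopeptidase, was the exception among the abundant cathepsins. It was at 56.4, 81.6 and 90.03 CPM in ISC of young mice, 80.4, 118 and 84.8 CPM in ISC of aged mice, 56.8, 81.7 and 42.4 CPM in AE of young mice and 73.3, 60.4 and 34.1 CPM in AE of aged mice. The young groups overlapped and the aged groups did not. The log2 fold change was -0.34 (SE 0.27) in young mice (adjusted p 0.322) and -0.83 (SE 0.27) in aged mice (adjusted p 0.0235), where it was called lower in AE. Whether the 2 differ was covered by the test of the age effect between cell types, in which *Ctsh* was not called (-0.42 (SE 0.42), adjusted p 1). The low *Ctsk*, known from osteoclasts, had 9, 0 and 80 counts in young AE (0.736, 0 and 0.959 CPM) and 3, 9 and 4 in aged AE, against 0, 0 and 4 in ISC of young mice and 1, 0 and 2 in ISC of aged mice. It was called higher in AE in aged mice alone (adjusted p 0.0158), and the call in young mice was not made at an adjusted p of 0.129.

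*Ctsw* encodes a cathepsin of cytotoxic lymphocytes. It had 8, 3 and 1 counts in young ISC, 0 in each aged ISC library, 15, 2 and 36 in young AE (1.23, 0.165 and 0.43 CPM) and 7, 6 and 6 in aged AE. In aged mice AE was at least 4.89-fold higher, with 3 counts set as the limit in each library at 0 (adjusted p 0.00245). The sum of 10 T cell and intraepithelial lymphocyte markers moved with *Ctsw*. It was between 8.79 and 20.7 CPM in young ISC, 3.07 and 4.75 CPM in aged ISC, 17.1 and 51.9 CPM in young AE and 19.7 and 53.1 CPM in aged AE. From young to aged ISC, 9 of the 10 were lower and 1, *Itgae*, was higher (means of 1.345 and 1.934 CPM), and 0 were called. Of these 10, 8 were called higher in aged AE than in aged ISC and 1 in young AE than in young ISC, *Nkg7* and *Trac* being at 0 in aged ISC. The 8 were 88.9% of the 9 tested in aged mice, against 30.0% of all genes. The 1 in young mice stands beside 27.7% of all genes, so the share there was below that of all genes. For *Ctss*, which leukocytes also express, the sum of 10 monocyte, macrophage and dendritic cell markers lay between 14.8 and 38.2 CPM in ISC and between 18.1 and 29.2 CPM in AE. Most of that sum came from *Cd14*, called lower in AE at both ages (-1.96 (SE 0.43) and -2.39 (SE 0.37)), and *Itgam*, called higher in young AE (0.77 (SE 0.22)). Of 8 tested in young mice 2 were called higher and 1 lower, with a median log2 fold change of 1.29, and of 5 tested in aged mice 0 were called higher and 2 lower. *Fcgr3* and *Cx3cr1* of that list were at 0 in young ISC, aged ISC and young AE, and *Csf1r*, *Adgre1* and *Tyrobp* were at 0 in young ISC and had counts in young AE. The part of such cells in the values of *Ctsw* and *Ctss* was not tested.

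The aspartic and serine cathepsins behaved alike, with 3 of 4 tested and all 3 higher in AE at both ages. *Ctse* encodes cathepsin E, an aspartic protease of gastric and other epithelia. It had 46, 60 and 166 counts in young AE (3.76, 4.96 and 1.99 CPM), 19, 25 and 6 in aged AE and 0 in all 6 ISC libraries. With 3 counts per library as the limit in ISC, *Ctse* was at least 20.2-fold higher in young AE and at least 12.4-fold higher in aged AE (adjusted p 7.99e-04 and 6.71e-04). *Ctsd*, cathepsin D, the main lysosomal aspartic protease, was at 143, 172 and 206 CPM in ISC of young mice, 179, 218 and 143 in ISC of aged mice, 344, 327 and 407 in AE of young mice and 410, 440.3 and 414 in AE of aged mice. No AE library of *Ctsd* fell within the ISC range, and AE exceeded ISC by a log2 fold change of 1.05 (SE 0.20) in young mice, with an adjusted p of 0.00283. *Ctsd* gave 1.16 (SE 0.20) in aged mice, with an adjusted p of 5.96e-04. The annotated same-strand gene *Gm49369* shares 34.4% of its exon bases. *Ctsa*, a serine carboxypeptidase that protects lysosomal sialidase and galactosidase, was at 123, 118 and 145 CPM in ISC of young mice, 130.1, 134 and 112 in ISC of aged mice, 224, 220.3 and 319 in AE of young mice and 273, 300.5 and 249 in AE of aged mice. For *Ctsa*, AE exceeded ISC by a log2 fold change of 0.98 (SE 0.20) in young mice, with an adjusted p of 0.00407. *Ctsa* gave 1.06 (SE 0.17) in aged mice, with an adjusted p of 3.64e-04.

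The lysosomal membrane glycoproteins divided. *Lamp1*, the most abundant of all these genes in AE, was at 296, 301 and 377 CPM in ISC of young mice, 271, 336 and 284 CPM in ISC of aged mice, 704, 869 and 1080 CPM in AE of young mice and 939, 1225 and 943 CPM in AE of aged mice. The second aged AE library was the highest, and AE exceeded ISC by a log2 fold change of 1.44 (SE 0.23) in young mice, with an adjusted p of 0.00133. *Lamp1* gave 1.73 (SE 0.21) in aged mice, with an adjusted p of 6.7e-05. *Lamp2*, which also serves chaperone-mediated autophagy, was at 110.3, 126 and 144 CPM in ISC of young mice, 104, 129.7 and 109 in ISC of aged mice, 229, 248 and 316 in AE of young mice and 261, 282 and 237 in AE of aged mice. The groups of *Lamp2* did not overlap, and AE exceeded ISC by a log2 fold change of 1.06 (SE 0.19) in young mice, with an adjusted p of 0.00229. *Lamp2* gave 1.12 (SE 0.17) in aged mice, with an adjusted p of 2.79e-04. *Lamp3*, the form known from mature dendritic cells and alveolar cells, was near the limit of detection and went the other way. It had 9, 9 and 5 counts in young ISC, 9, 10 and 7 in aged ISC, 0, 1 and 4 in young AE and 0, 2 and 1 in aged AE. The log2 fold change of *Lamp3* was -3.20 (SE 0.96) in young mice (adjusted p 0.022) and -1.89 (SE 1.02) in aged mice (adjusted p 0.131).

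Of the 7 genes for initiation, membrane supply and the PI3-kinase, 3 were higher in AE at both ages. *Atg9a* encodes the scramblase whose vesicles seed the autophagosome. It was at 49.2, 37.4 and 54.8 CPM in ISC of young mice, 34.3, 40.6 and 46.4 in ISC of aged mice, 201, 178 and 228 in AE of young mice and 213, 253 and 239 in AE of aged mice. AE held more than ISC in every library, and AE exceeded ISC by a log2 fold change of 2.10 (SE 0.20) in young mice, with an adjusted p of 1.87e-04. *Atg9a* gave 2.47 (SE 0.18) in aged mice, with an adjusted p of 2.23e-06. The same-strand model *Gm29253* shares 31.8% of the exon bases of *Atg9a*. *Atg2a*, which carries lipid from the endoplasmic reticulum, was at 42.6, 32.2 and 37.5 CPM in ISC of young mice, 39.9, 38.5 and 49.01 in ISC of aged mice, 84.2, 65.9 and 101 in AE of young mice and 83.9, 85 and 108 in AE of aged mice. The groups were apart for *Atg2a*, and AE exceeded ISC by a log2 fold change of 1.16 (SE 0.20) in young mice, with an adjusted p of 0.0018. *Atg2a* gave 1.04 (SE 0.17) in aged mice, with an adjusted p of 3.43e-04. *Atg13*, of the ULK kinase complex, was at 40.1, 31.1 and 36.8 CPM in ISC of young mice, 34.2, 35.3 and 43.7 in ISC of aged mice, 64.8, 63 and 83.7 in AE of young mice and 67.4, 70.8 and 64.8 in AE of aged mice. For *Atg13*, AE exceeded ISC by a log2 fold change of 0.97 (SE 0.18) in young mice, with an adjusted p of 0.00246. *Atg13* gave 0.77 (SE 0.15) in aged mice, with an adjusted p of 0.00144, or -0.01 under library totals. The paralog *Atg2b* was at 44.6, 51.97 and 45.2 CPM in ISC of young mice, 39.96, 40.4 and 58.8 in ISC of aged mice, 36.1, 44.98 and 45.02 in AE of young mice and 38.6, 44.3 and 51.3 in AE of aged mice, with overlapping groups and log2 fold changes of -0.17 (SE 0.16) and -0.12 (SE 0.19). *Atg101*, the partner of Atg13, and *Atg14*, of the PI3-kinase complex, were not called at either age (-0.33 and 0.06 for *Atg101*, 0.31 and 0.40 for *Atg14*). *Atg9b* was detected mainly in young ISC, with 3, 5 and 3 counts there, 1, 1 and 0 in aged ISC, 0, 0 and 5 in AE of young mice and 0 in all AE of aged mice.

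The conjugation machinery was mixed, with 3 of 7 genes (42.9%) higher in AE at both ages, where 27.7% (young) and 30.0% (aged) of all genes were. In aged mice 2 (28.6%) were lower, near the 34.1% of all genes. *Atg3*, the E2-like enzyme for Atg8 proteins, was at 29.7, 37.1 and 38.1 CPM in ISC of young mice, 33.2, 35.8 and 26.02 in ISC of aged mice, 55.6, 69.5 and 68.9 in AE of young mice and 58.5, 64.9 and 69.9 in AE of aged mice. Its groups did not overlap, and AE exceeded ISC by a log2 fold change of 0.89 (SE 0.17) in young mice, with an adjusted p of 0.00324. *Atg3* gave 0.95 (SE 0.17) in aged mice, with an adjusted p of 6.97e-04. *Atg12*, the ubiquitin-like protein, was at 34.8, 39.7 and 47.8 CPM in ISC of young mice, 50.5, 52.4 and 39.6 in ISC of aged mice, 59.5, 64.7 and 77.6 in AE of young mice and 71.7, 80.6 and 63.2 in AE of aged mice. For *Atg12*, AE exceeded ISC by a log2 fold change of 0.72 (SE 0.18) in young mice, with an adjusted p of 0.0104. *Atg12* gave 0.53 (SE 0.17) in aged mice, with an adjusted p of 0.0219. *Atg5*, to which Atg12 is linked, was at 29.4, 35.2 and 40.7 CPM in ISC of young mice, 34.2, 38.8 and 28.3 in ISC of aged mice, 44.3, 50.9 and 54.8 in AE of young mice and 49.3, 55.98 and 52.3 in AE of aged mice. The difference in *Atg5* was the smallest of the 3, and AE exceeded ISC by a log2 fold change of 0.51 (SE 0.18) in young mice, with an adjusted p of 0.0407. *Atg5* gave 0.57 (SE 0.16) in aged mice, with an adjusted p of 0.0124. The call on *Atg5* was lost in young mice without the first or the second ISC library and without the second or the third AE library, and in aged mice without the second AE library, with log2 fold changes from 0.37 to 0.63 and from 0.44 to 0.68 over all fits that left out a library. The call on *Atg12* was lost without the third young AE library (0.54) and without the second aged AE library. Under library totals *Atg5* turned to -0.19 and -0.21, and *Atg12* to -0.25 in aged mice. *Atg7*, the E1-like enzyme for both systems, was at 16.9, 15.5 and 18.9 CPM in ISC of young mice, 18.8, 18.2 and 17.2 in ISC of aged mice, 14.6, 20.7 and 23.9 in AE of young mice and 20.4, 18.99 and 21.5 in AE of aged mice. It was not called at either age (0.21 (SE 0.22) and 0.09 (SE 0.15)), nor was *Atg16l1*, the scaffold of the E3-like complex (-0.19 (SE 0.16) and -0.33 (SE 0.17)). *Atg16l2*, its paralog, and *Atg10*, the E2-like enzyme for Atg12, were called lower in AE in aged mice (log2 fold changes -0.94 (SE 0.30) and -0.75 (SE 0.29)) and not in young mice (-0.55 (SE 0.42) and -0.29 (SE 0.37)).

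Of the 5 Atg8 proteins, 3 were higher in AE at both ages. *Map1lc3a* encodes LC3A. It was at 4.15, 5.05 and 5.16 CPM in ISC of young mice, 5.98, 5.39 and 4.85 in ISC of aged mice, 17.4, 11.6 and 13.1 in AE of young mice and 17.3, 18.4 and 17.8 in AE of aged mice. All AE libraries lay above all ISC libraries, and AE exceeded ISC by a log2 fold change of 1.55 (SE 0.25) in young mice, with an adjusted p of 0.00131. *Map1lc3a* gave 1.65 (SE 0.19) in aged mice, with an adjusted p of 3.96e-05. *Gabarap* was at 143, 174 and 189.7 CPM in ISC of young mice, 157, 195 and 132 in ISC of aged mice, 398, 409 and 424 in AE of young mice and 428, 448 and 448 in AE of aged mice. For *Gabarap*, AE exceeded ISC by a log2 fold change of 1.28 (SE 0.18) in young mice, with an adjusted p of 7.39e-04. *Gabarap* gave 1.38 (SE 0.19) in aged mice, with an adjusted p of 1.59e-04. *Gabarapl2*, also known as GATE-16, was at 10.1, 15.7 and 21.7 CPM in ISC of young mice, 14.6, 21.9 and 11.3 in ISC of aged mice, 36.1, 35.1 and 35.5 in AE of young mice and 40.8, 36.6 and 35.9 in AE of aged mice. AE of *Gabarapl2* varied far less than ISC, and AE exceeded ISC by a log2 fold change of 1.17 (SE 0.27) in young mice, with an adjusted p of 0.00707. *Gabarapl2* gave 1.17 (SE 0.24) in aged mice, with an adjusted p of 0.00162. *Map1lc3b*, the LC3 form most used as a marker of autophagosomes, was at 47.5, 56.5 and 59.9 CPM in ISC of young mice, 56.99, 65.7 and 56.9 in ISC of aged mice, 57.2, 55.9 and 84.8 in AE of young mice and 72.1, 79 and 64.95 in AE of aged mice. Its groups overlapped, and the log2 fold changes were 0.27 (SE 0.20) and 0.20 (SE 0.15) (adjusted p 0.285 and 0.281). *Gabarapl1* was at 20.9, 18.2 and 26.5 CPM in ISC of young mice, 24.5, 21.1 and 19.4 in ISC of aged mice, 12.8, 12.7 and 47.5 in AE of young mice and 16.8, 24.7 and 15.7 in AE of aged mice. The third young AE library, the deepest, stood apart from the other AE libraries for *Gabarapl1*, and the log2 fold changes were 0.17 (SE 0.49) and -0.25 (SE 0.21). The gene *1700101I11Rik*, on the other strand, shares 28.3% of the exon bases of *Gabarapl1*, and whether the counting used the strand is not given.

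The Atg4 proteases cut Atg8 proteins before and after use. All 4 were tested, and 3 were higher in AE at both ages. *Atg4a* was at 2.04, 2.78 and 3.65 CPM in ISC of young mice, 2.92, 4.85 and 2.18 in ISC of aged mice, 7.77, 9.34 and 13.2 in AE of young mice and 11.1, 12.4 and 10.3 in AE of aged mice. Its groups were apart, and AE exceeded ISC by a log2 fold change of 1.84 (SE 0.33) in young mice, with an adjusted p of 0.00221. *Atg4a* gave 1.70 (SE 0.31) in aged mice, with an adjusted p of 9.42e-04. The pseudogene *Atg4a-ps*, at 0.765 to 3.92 CPM, is a near copy, and reads of the pair may have been divided between them or dropped. *Atg4d* was at 48.5, 45.2 and 56.9 CPM in ISC of young mice, 47.8, 59.2 and 49.9 in ISC of aged mice, 129, 138 and 138 in AE of young mice and 156, 146 and 135 in AE of aged mice. For *Atg4d*, AE exceeded ISC by a log2 fold change of 1.42 (SE 0.15) in young mice, with an adjusted p of 2.82e-04. *Atg4d* gave 1.41 (SE 0.16) in aged mice, with an adjusted p of 3.4e-05. *Atg4c* was at 13.1, 12.7 and 14.1 CPM in ISC of young mice, 11.4, 15.8 and 14.6 in ISC of aged mice, 21.6, 23.1 and 26.3 in AE of young mice and 23.02, 24.01 and 26.6 in AE of aged mice. For *Atg4c*, AE exceeded ISC by a log2 fold change of 0.83 (SE 0.17) in young mice, with an adjusted p of 0.00446. *Atg4c* gave 0.74 (SE 0.18) in aged mice, with an adjusted p of 0.00484. Under library totals it turned to -0.04 in aged mice. *Atg4b*, the most active form on LC3, was at 45.4, 50.95 and 50.8 CPM in ISC of young mice, 49.02, 50.1 and 47.1 in ISC of aged mice, 53.6, 52.7 and 63.8 in AE of young mice and 58.6, 55.3 and 56.3 in AE of aged mice. The ranges of *Atg4b* did not overlap within an age, yet the log2 fold changes of 0.21 (SE 0.15) and 0.15 (SE 0.13) did not pass the test (adjusted p 0.271 and 0.353).

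Ratios of 2 paralogs within a library need no scaling between libraries. Among 12 pairs, the 6 AE and the 6 ISC libraries did not overlap in 8, each with the first gene of the pair higher relative to the second in AE. These pairs were picked with the levels known and are given without a test. The log2 ratio of counts of *Map1lc3a* over *Map1lc3b* was -3.51, -3.48 and -3.53 in ISC of young mice, -3.25, -3.60 and -3.55 in ISC of aged mice, -1.71, -2.27 and -2.70 in AE of young mice and -2.06, -2.10 and -1.87 in AE of aged mice. ISC libraries were thus nearly equal and AE libraries all higher. The ratio of *Atg2a* over *Atg2b* was between -0.69 and 0.00 in the 6 ISC libraries and between 0.55 and 1.22 in the 6 AE libraries, so that the paralogs had like counts in ISC and *Atg2a* the more in AE. *Atg4d* over *Atg4b* was between -0.17 and 0.24 in the 6 ISC libraries and between 1.11 and 1.41 in the 6 AE libraries. *Atg4a* over *Atg4b* was between -4.45 and -3.36 in the 6 ISC libraries and between -2.78 and -2.16 in the 6 AE libraries. The pump isoforms shifted as well. *Atp6v0a1* over *Atp6v0a2* was between -2.56 and -1.90 in the 6 ISC libraries and between -1.79 and -0.86 in the 6 AE libraries, and *Atp6v0e2* over *Atp6v0e* was between -2.35 and -1.65 in the 6 ISC libraries and between -1.62 and -0.94 in the 6 AE libraries. *Lamp1* over *Lamp2* was between 1.26 and 1.42 in the 6 ISC libraries and between 1.62 and 2.12 in the 6 AE libraries, and *Atg4c* over *Atg4b* was the remaining pair of the 8. *Gabarap* over *Gabarapl1* was between 2.68 and 3.26 in ISC, and the third young AE library, at 3.16, lay within that range while the other AE libraries were at 4.18 or above. The pairs *Gabarapl2* over *Gabarapl1*, *Atp6v1g1* over *Atp6v1g2* and *Atg16l1* over *Atg16l2* overlapped too.

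**Figure D4:**
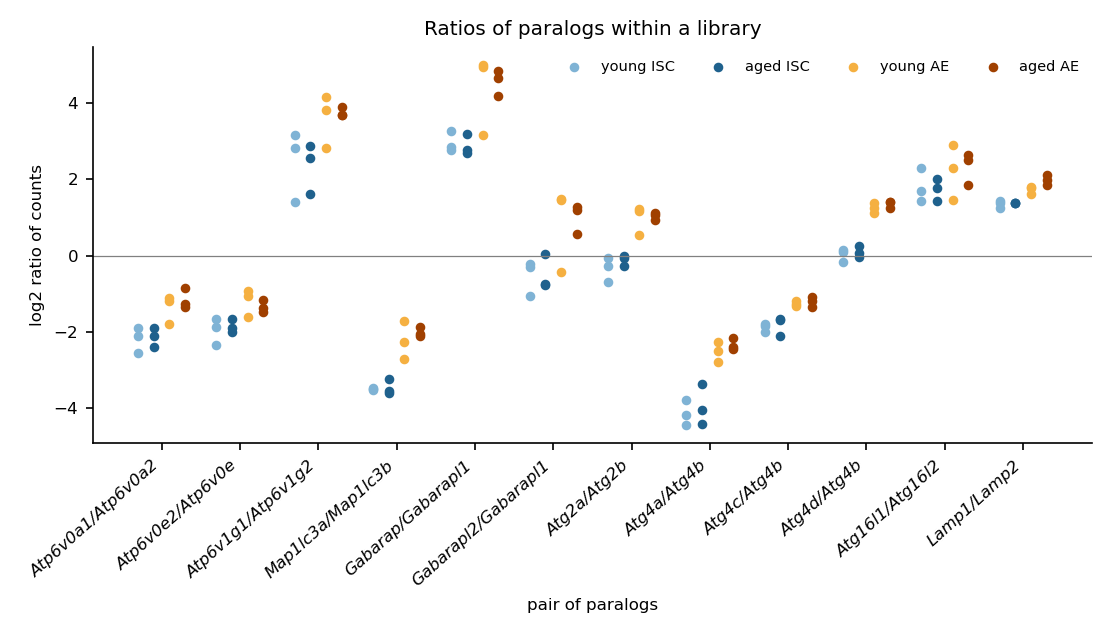
Log2 ratio of the counts of 2 paralogs within a library (y axis) for 12 pairs (x axis). Each point is a library, coloured by group. AE points lie above ISC points without overlap in 8 pairs, among them *Map1lc3a* over *Map1lc3b*, at -2.70 to -1.71 in AE and -3.60 to -3.25 in ISC.

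Other genes of the pathway were taken from lists, whose counts stand beside the shares of all genes given above, 27.7% higher and 25.4% lower in young AE and 30.0% and 34.1% in aged AE. Of 18 cargo receptors and fusion factors, 11 (61.1%) were higher and 1 lower in young AE, and 14 (77.8%) higher and 2 lower in aged AE. *Optn*, a receptor for ubiquitinated cargo, was at 35.3, 28.9 and 45.1 CPM in ISC of young mice, 24.4, 29.3 and 30.8 in ISC of aged mice, 346, 282 and 369 in AE of young mice and 385, 421 and 541 in AE of aged mice, and its log2 fold changes were 3.19 (SE 0.23) and 3.92 (SE 0.21). *Bnip3*, a mitophagy receptor, had log2 fold changes of 3.30 (SE 0.51) and 3.64 (SE 0.50). Of 17 initiation and nucleation genes, 7 (41.2%) were higher and 1 lower in young AE, and 8 (47.1%) higher and 2 lower in aged AE, with the membrane protein gene *Vmp1* at 2.03 (SE 0.27) and 1.99 (SE 0.18) and *Zfyve1* at 1.80 (SE 0.24) and 1.93 (SE 0.18).

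Of 34 soluble lysosomal hydrolases and activators, 14 (41.2%) were higher and 8 (23.5%) lower in young AE, and 15 (44.1%) higher and 12 (35.3%) lower in aged AE, the lower shares being near those of all genes, with median log2 fold changes of 0.41 and 0.31. *Lipa*, lysosomal acid lipase, was at 6.32, 5.11 and 21.6 CPM in ISC of young mice, 3.40, 8.47 and 3.83 in ISC of aged mice, 85.1, 124 and 269 in AE of young mice and 97.8, 245 and 159 in AE of aged mice. Its log2 fold changes were 3.85 (SE 0.66) and 4.95 (SE 0.46). *Gm2a*, the activator of ganglioside breakdown, was at 21.7, 23.4 and 17.6 CPM in ISC of young mice, 28.8, 24.2 and 24.5 in ISC of aged mice, 4.25, 8.52 and 1.49 in AE of young mice and 6.09, 2.69 and 3.71 in AE of aged mice, and fell in AE with log2 fold changes of -2.19 (SE 0.55) and -2.71 (SE 0.27). Of 21 lysosomal membrane proteins, sorting receptors and pump accessories, 10 (47.6%) were higher at each age, 3 (14.3%) lower in young AE and 5 (23.8%) lower in aged AE, with *Ostm1*, of the lysosomal chloride exchanger, at 1.55 (SE 0.26) and 1.57 (SE 0.18) and the cystine exporter *Ctns* at 1.57 (SE 0.19) and 1.47 (SE 0.16). Of 15 regulators of lysosomal genes, 4 (26.7%) were higher in young AE, near the share of all genes, 6 (40.0%) in aged AE and 0 lower. Among them were *Fnip1* (1.25 (SE 0.22) and 1.35 (SE 0.23)) and *Rragd* (0.88 (SE 0.18) and 1.04 (SE 0.15)), both of the lysosomal nutrient-sensing pathway. Of 5 cathepsin inhibitors tested, 3 were higher and 0 lower at both ages, among them the cystatin *Cst6* (3.30 (SE 0.70) and 4.29 (SE 0.33)) and the serpin *Serpinb1a* (2.06 (SE 0.31) and 2.31 (SE 0.27)).

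Between ages, none of these genes was called in either cell type. In ISC 54 were tested, 0 were called at an adjusted p under 0.05 by edgeR's quasi-likelihood test or by DESeq2, and 2 (3.7%) had an unadjusted p under 0.05 against 4.47% of all genes. Of all 15552 genes, 0% were called by edgeR, and 0.373% of all genes by DESeq2. The 45 genes with a mean of at least 10 CPM had log2 fold changes of aged over young between -0.29 and 0.32, with a median SE of 0.18 over these 45. The lowest p in ISC belonged to *Ctsw*, with the counts given above, 0 in each aged library, at an adjusted p of 1, and to *Atg9b*, with 3, 5 and 3 counts in young and 1, 1 and 0 in aged ISC (adjusted p 1). Next was *Atp6v0e*, at 39.7, 47.5 and 47.6 CPM in young and 36.9, 40.9 and 31.98 CPM in aged ISC. These ranges overlapped, with a log2 fold change of -0.29 (SE 0.15) and an adjusted p of 1.

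In AE, 54 were tested, 0 were called by edgeR or by DESeq2, and 0 had an unadjusted p under 0.05 against 4.97% of all genes. Of all 16265 genes, 0% were called by edgeR, and 0.111% of all genes by DESeq2. Genes with a mean of at least 10 CPM had log2 fold changes between -0.35 and 0.38, with a median SE of 0.16. *Atg101* was at 20.9, 21.2 and 24.1 CPM in young and 25.7, 26.3 and 33.6 CPM in aged AE. These did not overlap, with a log2 fold change of 0.38 (SE 0.17) and an adjusted p of 0.833. *Ctss* was at 169, 193 and 201 CPM in young and 226, 239 and 231 CPM in aged AE, again without overlap, with a log2 fold change of 0.32 (SE 0.15) and an adjusted p of 0.833. *Ctse* was at 3.76, 4.96 and 1.99 CPM in young and 1.81, 2.24 and 0.654 CPM in aged AE, which overlapped, with a log2 fold change of -1.13 (SE 0.55) and an adjusted p of 0.833. Of the 54, 8 had all aged AE libraries above all young ones and 1 all below. Among all 16265 genes, 642 were above and 1135 below, which made 10.9% without overlap in either direction. The median log2 fold change was 0.09 for the 54, of which 36 were positive, and -0.04 for all genes. Whether the 54 differ from other genes as a set was not tested. In ISC the counts were 0 above and 2 below (*Ctsw* and *Atg9b*). Among all genes tested in ISC, 689 were above and 686 below, or 8.84% without overlap. A difference of the age effect between the cell types was called for none of 58 genes tested (0 by edgeR, 1 at an unadjusted p under 0.05), where 0.00575% of all genes, a single gene, was called. DESeq2 called 0 of them and 0.248% of all genes.

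**Figure D5:**
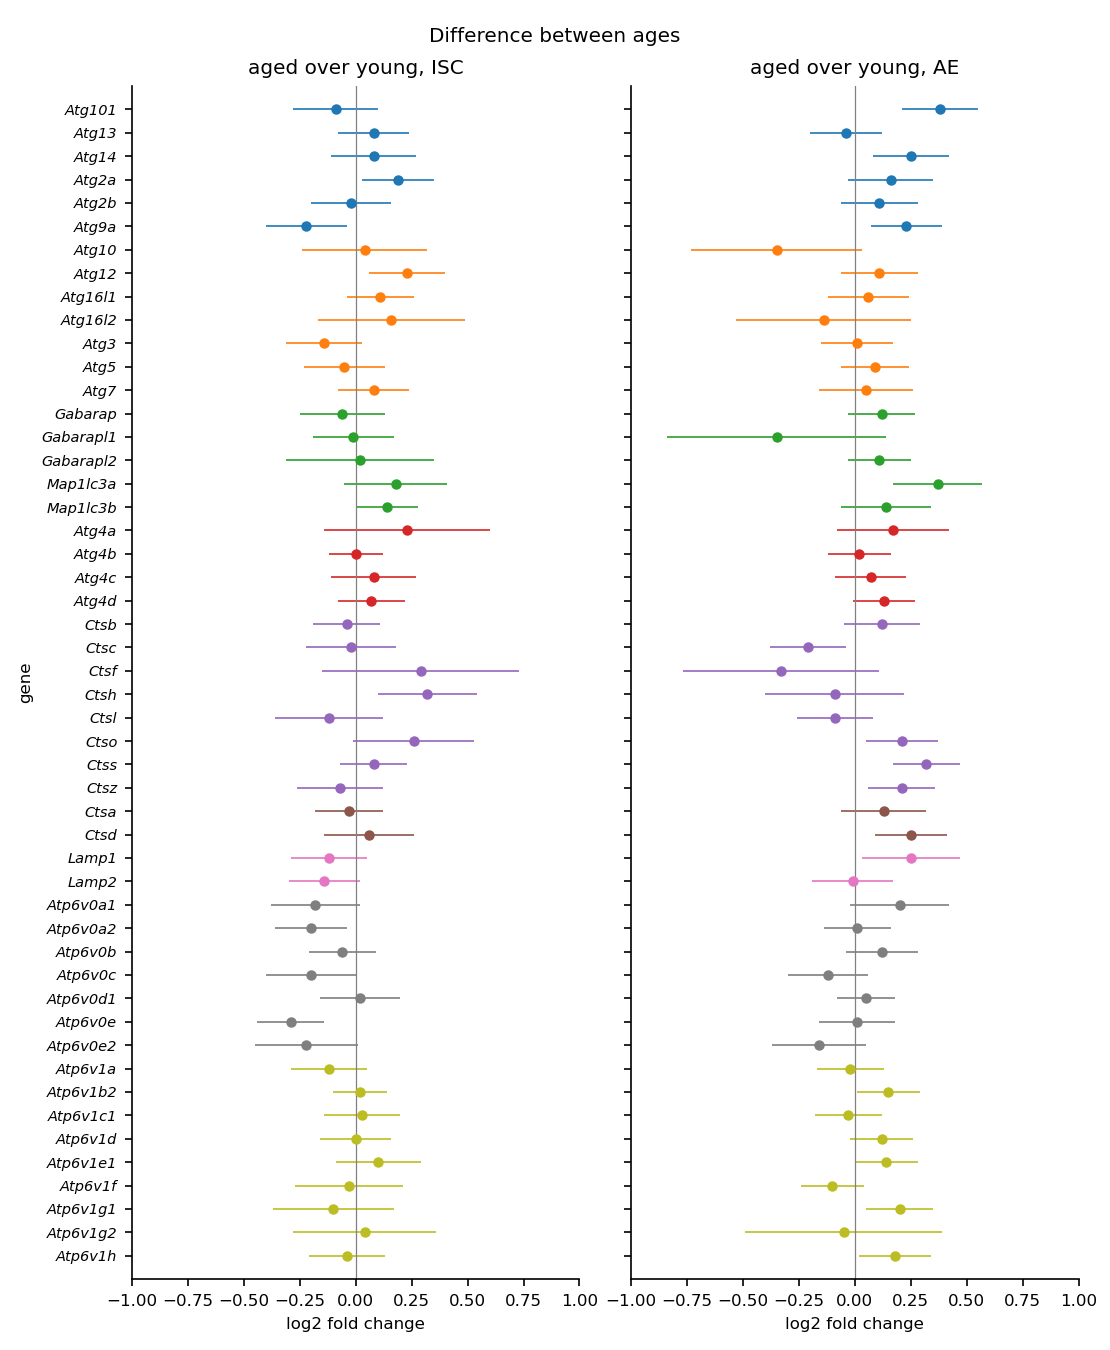
Log2 fold change of aged over young in ISC (left) and AE (right) for the genes with a mean of at least 1 CPM other than *Ctse*, coloured by role, with bars of 1 SE. All points lie between -0.35 and 0.38, and none passed the test.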

How the data were processed

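RNA of ISC and AE was sequenced from poly(A)+ libraries with single-end reads of 50 bp. The deposited values are raw read counts per gene: the authors trimmed adaptors with Trim Galore 0.4.4, mapped reads to GRCm38 with HISAT2 2.1.0 and used SeqMonk to count uniquely mapped reads over merged exons of each gene. The annotation release and the strand setting of the counting are not given in the sources used here. A second deposited table, of the authors' differentially expressed genes, was not used.

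Columns were assigned to groups by their own names. For each comparison, genes reaching 10 counts in total were kept, TMM factors were computed, and the quasi-likelihood test of edgeR 4.0.16 (R 4.3.3) was fitted to the whole table, with Benjamini-Hochberg adjustment over all genes and a threshold of 0.05. The test was checked on simulated data. Alternatives were DESeq2 1.42.0, other scalings and filters, a fit on all 4 groups and leaving out each library. Library codes are shared by ISC and AE of an age. Deviations from the group means correlated over genes between libraries that share a code, at 0.121 to 0.287 in 6 pairs against -0.214 to 0.0584 in 12 pairs of different codes, so the code served as the replicate block of a further fit. Per-length levels used merged exons of GENCODE M21, and promoters came from RefSeq (GRCm38.p6).

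The genes and lists were chosen with earlier results of these data known. Genes were named by rule: per role, up to 4 called with the same sign at both ages and the largest mean absolute log2 fold change, paralogs that differ in sign, the 3 lowest p per cell type between ages, and 2 per pathway list. The other genes, and the pairs of paralogs, were chosen after their values were seen. The limits of 3 counts cover counting error only.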

Additional observations from a re-analysis of the deposited data

How the results depend on the processing

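The call of 0 genes between ages, in ISC, in AE and for the difference between cell types, held under every alternative run. For AE against ISC, genes called higher stayed within 1.5 times of 36 and 40 except under library totals without a scaling factor, chosen after seeing the data, which gave 19 higher and 10 lower in young mice and 19 higher and 15 lower in aged mice. There *Atg5* turned to -0.19 in young and -0.21 in aged mice, and *Atg4c* (-0.04), *Atg12* (-0.25) and *Atg13* (-0.01) turned in aged mice. Genes called lower were 0 in young mice with the filterByExpr filter and with the replicate block, and 2 in aged mice with DESeq2, without a filter and in the fit on all 4 groups. Leaving out each library gave 31 to 36 higher and 0 to 2 lower in young mice, and 35 to 40 higher and 1 to 3 lower in aged mice, and 0 of either between ages. The replicate block by library code gave 37 higher in young mice, and 41 higher and 3 lower in aged mice, and 0 for the difference of age effects. Of the settings run on genes named by rule, 913 kept direction and side of the threshold, 30 lost the call and 5 reversed. The cause of these shifts was not tested. Depth limited the genes under 1 CPM, whose calls rest on a few counts.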
